A study of Mus musculus with 12 samples.

Results

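The 48 genes described here encode proteins of the presynaptic terminal: synaptic vesicle proteins, the machinery that fuses vesicles with the membrane, the scaffolds of the active zone and the proteins that retrieve vesicle membrane. They were listed by name, with earlier results of these data known, and were located among 21900 protein-coding gene spans of the mouse build mm10. Peaks of 5-methylcytosine (m5C) in RNA lay in 46 of the 48 genes in at least 1 peak list, and in 9530 gene spans in all. The tissue was whole hippocampus from female wild-type (WT) C57BL/6 mice, with an aged group at 18 months and a young group at 3 months. Each age had 3 libraries of RNA captured with an m5C antibody (IP) and 3 input libraries, 12 in all, and the authors deposited 1 peak list per IP library, so there were 3 aged and 3 young lists. The labels describe the ages as natural aging and as young, name no treatment or transgene, and do not state that the 3 samples of each age were different mice. A p-value below thus speaks only of the spread among these samples, which may be technical.

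At a synapse, vesicles filled with transmitter are held in a cluster by synapsins, docked at the active zone by large scaffold proteins and readied for release by priming factors. Calcium entering the terminal binds synaptotagmins, and SNARE proteins on the vesicle and on the plasma membrane then zip together and fuse the membranes. NSF and its SNAP adaptors take the SNAREs apart again, while dynamin, amphiphysin and synaptojanin act in the recovery of vesicle membrane by endocytosis. Methylation at position 5 of cytosine is made in messenger RNA by enzymes of the NSUN family and has been tied to RNA export, stability and translation.

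The lists differed in length, which touches every count below. They held 15189, 14008 and 14294 peaks in aged and 9887, 8549 and 10392 in young hippocampus, a ratio of means of 1.51, and the number of reads behind them is unknown. A peak depends on how much of a transcript was present as well as on its methylation, and an antibody peak does not resolve the modified base. In bulk tissue, fewer cells of a type and less RNA per cell cannot be told apart. Of 8 marker genes of hippocampal principal neurons, 8, 7 and 8 had a peak in aged lists and 7, 7 and 8 in young lists. Of 7 astrocyte markers, 7, 7 and 6 had one in aged and 5, 3 and 6 in young lists, and of 6 oligodendrocyte markers 3, 3 and 4 in aged and 4, 2 and 3 in young lists. Endothelial markers with a peak numbered 3, 4 and 3 of 5 in aged and 2, 3 and 1 in young lists, and microglial markers 1, 2 and 1 of 6 in aged and 1, 1 and 1 in young lists. The defining markers Cnp, P2ry12, Csf1r, Tmem119, C1qa and Cldn5 had no peak in any list. Their part in the results was not tested.

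Presynaptic transcripts carried more m5C peaks in aged than in young hippocampus, in every list. Peaks in the 48 genes numbered 202, 191 and 195 in the aged lists and 125, 99 and 144 in the young lists. The aged lists averaged 196 ± 5.57 and the young lists 122.7 ± 22.6 (SD, n = 3 each), a ratio of 1.6 (two-sided exact permutation test, p = 0.1; Benjamini-Hochberg adjusted p = 0.2 over 6 comparisons). The smallest p that such a test can reach with 3 lists per age is 0.1, above the threshold of 0.05. The number of the genes with a peak was 44, 42 and 44 in aged and 38, 33 and 39 in young lists, a difference of 6.67 genes (exact permutation p = 0.1, adjusted p = 0.2). Peaks covered 88191, 83565 and 102256 bases of these genes in aged lists and 48000, 39225 and 69396 bases in young lists, a ratio of means of 1.75 (exact permutation p = 0.1, adjusted p = 0.2). For these 3 quantities the ages did not overlap.

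Relative to the length of the lists, the difference was small and the ages overlapped. Peaks in the 48 genes made up 1.33%, 1.36% and 1.36% of the aged lists and 1.26%, 1.16% and 1.39% of the young lists, and the third young list was the highest of all. The difference of the means was 0.0832 percentage points (exact permutation p = 0.4, adjusted p = 0.4), and it was 0.0276 without the second young list and 0.141 without the third. With only the 8549 peaks of highest score kept in every list, the length of the shortest, the shares were 1.696%, 1.696% and 1.626% in aged and 1.345%, 1.158% and 1.497% in young lists, which did not overlap (exact permutation p = 0.1). The ages also did not overlap when only peaks with a score of at least 100 were used, or without the 6 genes with most peaks, with differences of 0.156 and 0.174 percentage points (exact permutation p = 0.1 in each). Cuts by score favour genes whose peaks score high. Presynaptic peaks had higher median scores than all peaks in every list, such as 244.6 against 143.1 in the first aged list. Equal length removed no peak from the second young list, so its share stayed at 1.158%. The cut to equal length can thus raise the share most in the longest lists. How much of the lack of overlap came from the cuts was not tested. Of the genes with a peak in a list, the 48 made up 0.649%, 0.662% and 0.682% in aged and 0.721%, 0.674% and 0.717% in young lists (exact permutation p = 0.2), so they were not a larger share of the marked genes in aged lists.

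**Figure D1:**
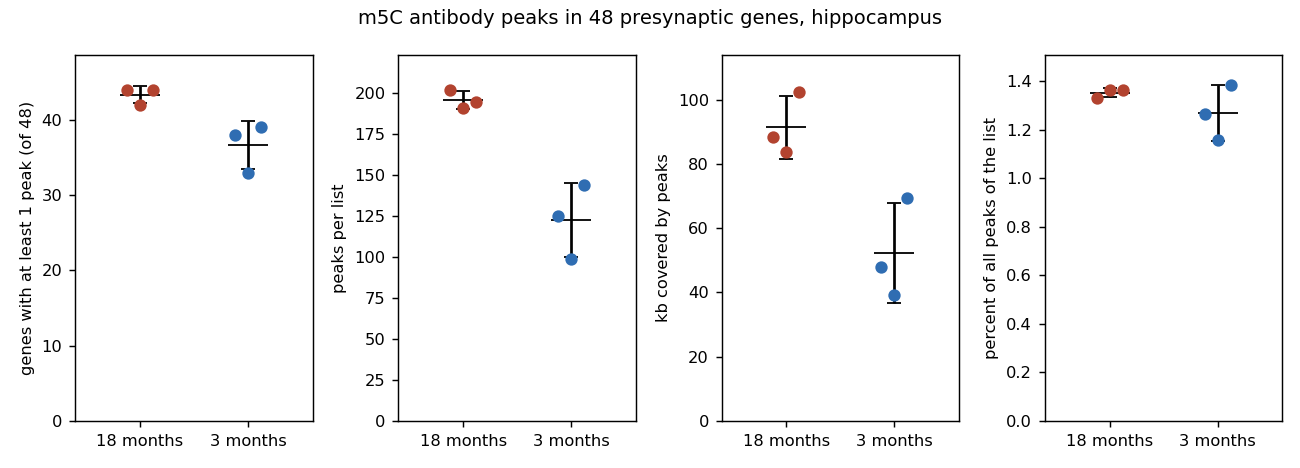
Values of the 48 presynaptic genes in each of the 3 aged (18 months, left) and 3 young (3 months, right) peak lists: genes with a peak, number of peaks, kilobases covered and percent of all peaks of the list. Each point is 1 list and the bar its age's mean with the SD; the aged points lie above the young ones in the first 3 panels, and in the fourth the third young list, at 1.39%, is the highest.

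Most of the genes were marked at both ages, and both the number of marked genes and the number of peaks per gene were higher in aged lists. Of the 48 genes, 13 had a peak in more aged than young lists and 1 in fewer, a count that was not made over all genes. Of the 46 genes with any peak, 31 (67.4%) had one in all 6 lists, against 3048 of all 9530 genes with a peak (32.0%). Syn1 was the only one with a peak in every aged and no young list, a pattern that 4.24% of all genes with a peak had, and none had the opposite pattern, which 0.808% of all genes had. The mean number of peaks was higher in aged lists for 39 genes, equal for 6 and lower for 1. These numbers were not counted over all genes, and the longer aged lists raise the mean of genes in general. The median difference of the means, aged minus young, was 1.33 peaks for the 46 genes and 0.333 for all genes with a peak. Among genes with at least 6 peaks over the 6 lists it was 1.67 and 0.667. In 16 of the 46 genes (34.8%) every aged list had more peaks than every young list, and in 0 the opposite. Over all 9530 genes with a peak these percentages were 11.8 and 0.955. The presynaptic genes had larger spans, with a median of 100.5 kb against 30.8 kb for all genes with a peak, and more peaks, with medians of 14.5 and 4 over the 6 lists. Among genes with at least 6 peaks over the 6 lists, 16 of 40 presynaptic genes (40%) and 18.9% of 4091 genes were higher in every aged list, and 0.391% of these genes were higher in every young list. Among genes with at least 12 peaks, it was 12 of 27 presynaptic genes (44.4%) and 28.3% of 1826 genes.

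**Figure D2:**
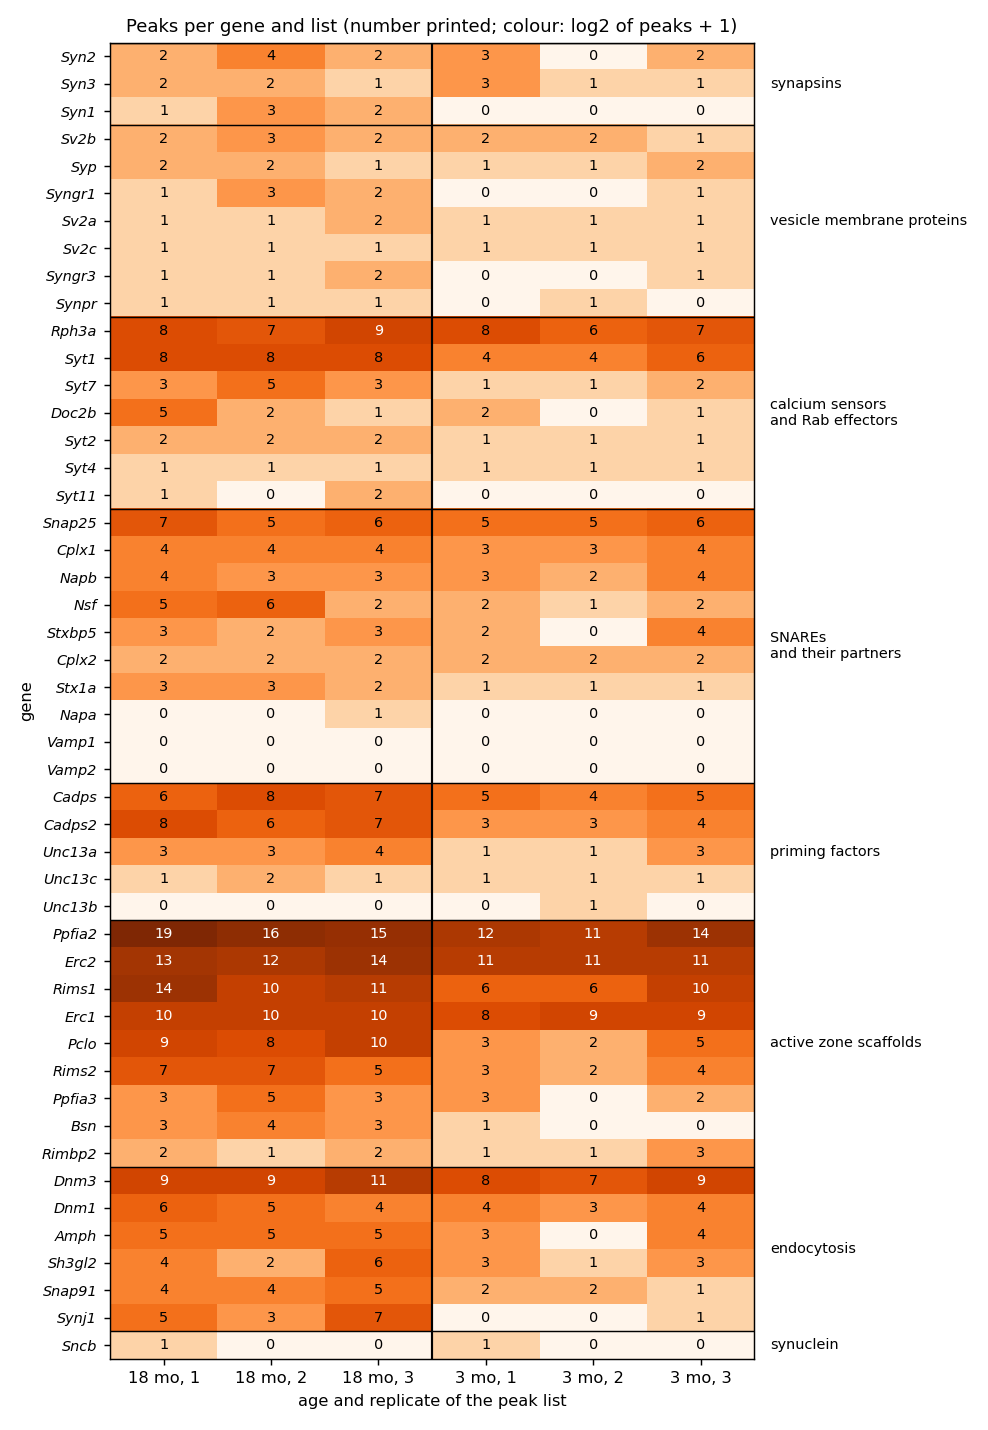
Heat map of the number of m5C peaks in each of the 48 presynaptic genes (rows, grouped by role) in the 3 aged lists (left columns) and the 3 young lists (right columns), with the number printed in each cell and darker shades for more peaks on a log2 scale. Syn1 is the one gene with peaks in every aged and no young column, Cplx2, Sv2c and Syt4 have the same number in all 6, and Vamp1 and Vamp2 have none.

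Synapsins tether vesicles to each other and to actin and release them on phosphorylation. Syn1 had 1, 3 and 2 peaks in aged lists, covering 506, 755 and 1605 bases, and 0 in each young list. The 3 aged lists shared a region at the start of the gene, on chromosome X from 20920413 to 20921004 on the minus strand, with scores of 237.2, 1079 and 261.2. Syn2 had 2, 4 and 2 peaks in aged and 3, 0 and 2 in young lists, and Syn3 had 2, 2 and 1 in aged and 3, 1 and 1 in young lists, so for both genes the ages overlapped. The 3 synapsins together had 6.33 ± 2.31 peaks in aged and 3.33 ± 2.52 in young lists (SD, n = 3 each), which overlapped. The authors' score per peak is used here within a list, except where a score of at least 100 was required in every list. The score starts at about 50 in each list, and the sources used here do not say how it was computed.

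Peaks at gene starts were compared with the starts of RefSeq transcripts (table of GRCm38.p6, the mm10 assembly), which held 50 starts of 40 of the genes. A peak covered 22 of these starts, in 21 genes. The starts of Cplx1 and Napb and a start of Rph3a, at 121009538, were covered in all 6 lists. The other starts of Rph3a, at 121008484 and 121010092, were covered in no list. Those of Syn1 and Amph were covered in the 3 aged and no young lists. The start of Pclo was covered in 3 aged and 2 young lists. The sequences below show what lies at starts of these classes, and were picked after the values were seen. Each runs from 50 bases before the start, in lower case, to the first 30 transcribed bases, in capitals, on the gene's strand. They are Syn1 at chrX:20920889-20920968 (minus strand), Amph at chr13:18948301-18948380 (plus strand), Pclo at chr5:14514868-14514947 (plus strand) and Rph3a at chr5:121009509-121009588 (minus strand).
Syn1: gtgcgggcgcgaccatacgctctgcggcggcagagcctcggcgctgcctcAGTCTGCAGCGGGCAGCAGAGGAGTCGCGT
Amph: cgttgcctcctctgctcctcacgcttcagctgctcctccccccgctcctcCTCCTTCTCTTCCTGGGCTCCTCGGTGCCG
Pclo: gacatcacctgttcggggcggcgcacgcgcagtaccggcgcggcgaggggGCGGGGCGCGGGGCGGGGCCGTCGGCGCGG
Rph3a: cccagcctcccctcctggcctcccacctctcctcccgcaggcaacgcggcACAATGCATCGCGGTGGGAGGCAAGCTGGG
In the first 50 transcribed bases, cytosine made up 30% at the Syn1 start, 46% at Amph, 34% at Pclo and 32% at Rph3a, and G and C together 70%, 74%, 90% and 68%. Over the 22 covered starts the median was 32% cytosine and 73% G and C, against 26% and 66% over the 28 starts of these genes with no peak and 26% and 56% over all 32851 starts in the table. The motif CNGGG, a G-rich context known from sites of the m5C writer NSUN2 and read on the transcribed strand only, was in the first 50 transcribed bases of 13 of the 22 covered starts, Amph, Pclo and Rph3a among them but not Syn1, of 14 of the 28 starts with no peak and of 30.5% of all starts. CTCCA, known from sites of NSUN6, was in 0 of the 22, in 1 of the 28 and in 7.48% of all. A match is a description of letters and not of a methylated site, and the motifs can share bases.

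Proteins of the vesicle membrane had 9, 12 and 11 peaks in aged and 5, 6 and 7 in young lists, 10.7 ± 1.53 against 6 ± 1 (SD, n = 3 each), without overlap between ages. None of the 7 genes did so alone. Syp, synaptophysin, an abundant vesicle membrane protein, had 2, 2 and 1 peaks in aged and 1, 1 and 2 in young lists. Its relatives overlapped between ages as well. Syngr1, a synaptogyrin, had 1, 3 and 2 in aged and 0, 0 and 1 in young lists. Syngr3 had 1, 1 and 2 in aged and 0, 0 and 1 in young lists, and its 3 aged lists shared a region that no young list had, on chromosome 17 from 24689721 to 24689955. Synpr, synaptoporin, had 1 peak in each aged list and in the second young list. The SV2 transporter-like glycoproteins varied less. Sv2a had 1, 1 and 2 peaks in aged and 1 in each young list, Sv2b had 2, 3 and 2 in aged and 2, 2 and 1 in young lists, and Sv2c had 1 peak of 681 bases in every list of both ages.

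Calcium sensors and Rab effectors had 28, 25 and 26 peaks in aged and 17, 13 and 18 in young lists, 26.3 ± 1.53 against 16 ± 2.65 (SD, n = 3 each), and the ages did not overlap. Syt1, the calcium sensor of fast synchronous release, had 8 peaks in each aged list and 4, 4 and 6 in the young lists. Syt1 had 4 regions with a peak in every list and 1 that the aged lists alone shared, on chromosome 10 from 108831106 to 108831171. Across the 6 lists, 2 of its peaks also lay in another gene's span. Syt2, a fast sensor best known from the brainstem and from some interneurons, had 2 peaks in each aged list and 1 in each young list, covering 335 and 168 bases in every list of each age. Syt7, a slow high-affinity sensor, had 3, 5 and 3 peaks in aged and 1, 1 and 2 in young lists, so all 3 of these genes were higher in every aged list. Syt7 covered 4227, 4580 and 4621 bases in aged and 132, 3360 and 3532 in young lists, with the first young list far below the others. Rph3a, rabphilin, which binds Rab3, had 8, 7 and 9 peaks in aged and 8, 6 and 7 in young lists, which overlapped. Doc2b, a sensor of spontaneous and asynchronous release, had 5, 2 and 1 in aged and 2, 0 and 1 in young lists. Syt11 had 1, 0 and 2 in aged and 0 in all young lists, and Syt4 had 1 peak in every list.

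Among SNAREs and their partners the ages overlapped, with 28, 25 and 23 peaks in aged and 18, 14 and 23 in young lists, 25.3 ± 2.52 against 18.3 ± 4.51 (SD, n = 3 each). Stx1a, syntaxin 1A of the plasma membrane, was the one gene of this role higher in every aged list, with 3, 3 and 2 peaks in aged and 1 in each young list. Its aged lists had overlapping peaks near the gene start, in a region on chromosome 5 from 135023482 to 135023610 where no young list had one, with scores of 142.8, 109.5 and 62.9. The peak of the third aged list alone reached the first base of the span. Snap25, the other SNARE of the plasma membrane, had 7, 5 and 6 peaks in aged and 5, 5 and 6 in young lists. The vesicle SNAREs Vamp1 and Vamp2 had no peak in any list. Their spans are short, at 6726 and 3854 bases, and a gene without a peak may still be expressed or methylated.

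The complexins, which clamp and promote SNARE fusion, differed little between ages. Cplx2 had 2 peaks covering 4633 bases in every list, with scores reaching 3100 in each, where the scale is saturated. Cplx1 had 4 peaks in each aged list and 3, 3 and 4 in young lists. A region at the far end of Cplx1, on chromosome 5 from 108518554 to 108520326, was present in 3 aged and 1 young list. Nsf, the ATPase that disassembles SNAREs, had 5, 6 and 2 peaks in aged and 2, 1 and 2 in young lists. Napb, a SNAP adaptor, had 4, 3 and 3 in aged and 3, 2 and 4 in young lists, and Napa had 1 peak in the third aged list only. Stxbp5, tomosyn, an inhibitor of SNARE assembly, had 3, 2 and 3 in aged and 2, 0 and 4 in young lists.

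Priming factors had 18, 19 and 19 peaks in aged and 10, 10 and 13 in young lists, 18.7 ± 0.577 against 11 ± 1.73 (SD, n = 3 each), without overlap. The CAPS proteins accounted for most of them. Cadps had 6, 8 and 7 peaks in aged and 5, 4 and 5 in young lists, and Cadps2 had 8, 6 and 7 in aged and 3, 3 and 4 in young lists, so every aged list was above every young list for both. At equal list length both genes overlapped between ages. Cadps then had 4, 5 and 3 in aged and 5, 4 and 5 in young lists. Cadps2 had 4, 4 and 3 in aged and 3 in each young list. The Munc13 genes, whose proteins open syntaxin for SNARE assembly, overlapped between ages in the lists as deposited. Unc13a had 3, 3 and 4 in aged and 1, 1 and 3 in young lists, with 3 at both ages. Unc13b had 1 peak in the second young list and none elsewhere, and was the one gene with a lower aged mean. Unc13c had 1, 2 and 1 peaks in aged and 1 in each young list, but these covered 720, 3057 and 1903 bases in aged and 3162, 3213 and 3213 in young lists. Unc13c was the 1 presynaptic gene with more bases covered in every young list, which 2.22% of all genes with a peak had, and 14 (30.4%) had more bases in every aged list, which 14.2% of all genes with a peak had.

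Active zone scaffolds held the most peaks, 80, 73 and 73 in aged and 48, 42 and 58 in young lists, 75.3 ± 4.04 against 49.3 ± 8.08 (SD, n = 3 each), without overlap. Of the 9 genes, 6 (66.7%) were higher in every aged list, against 11.8% of all genes with a peak and 28.3% of those with at least 12 peaks, and 2 of them, Bsn and Pclo, were at equal list length. Bassoon and Piccolo are giant proteins that organise the active zone. Bsn had 3, 4 and 3 peaks in aged and 1, 0 and 0 in young lists. Covered bases were 7392, 9469 and 9128 in aged and 341, 0 and 0 in young lists. The wide region from 108109885 to 108116526 on chromosome 9, of 6642 bases and centred 77.2 kb from the gene start, had a peak in each aged list and in no young list, with scores of 378, 697.2 and 887.2. A second region with this pattern lay at 108139187 to 108139595.

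Pclo had 9, 8 and 10 peaks in aged and 3, 2 and 5 in young lists, covering 5680, 7534 and 9581 bases in aged and 3436, 2893 and 4156 in young lists. Of its regions, those at 14668965 to 14669675 and 14712417 to 14714598 on chromosome 5 had a peak in every list, and 3 had one in every aged and no young list, at 14520842 to 14522324, 14765154 to 14765262 and 14855543 to 14855677. The region at the Pclo start, shown above, had a peak in 3 aged and 2 young lists.

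RIM proteins link vesicle Rab3 and calcium channels to the active zone. Rims1 had 14, 10 and 11 peaks in aged and 6, 6 and 10 in young lists, which met at 10, and Rims2 had 7, 7 and 5 in aged and 3, 2 and 4 in young lists, without overlap. Rimbp2, which binds RIM and calcium channels, had 2, 1 and 2 in aged and 1, 1 and 3 in young lists. The ELKS proteins bind RIM and Bassoon and had peaks close in number at both ages. Erc1 had 10 in each aged list and 8, 9 and 9 in young lists, and Erc2 had 13, 12 and 14 in aged and 11 in each young list. These small differences separated the ages in the lists as deposited but not at equal list length. There Erc1 had 8, 9 and 9 in aged and 7, 9 and 8 in young lists. Erc2 had 11, 9 and 12 in aged and 9, 11 and 11 in young lists. Ppfia2, liprin-alpha-2, had the most peaks of the 48 genes, 19, 16 and 15 in aged and 12, 11 and 14 in young lists. Ppfia3, liprin-alpha-3, had 3, 5 and 3 in aged and 3, 0 and 2 in young lists, which overlapped at 3.

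The 6 genes with most peaks, Ppfia2, Erc2, Rims1, Erc1, Dnm3 and Rph3a, held 370 of the 956 peaks of the 6 lists (38.7%), and their spans were 464, 856.3, 520.2, 277.4, 495.9 and 69.6 kb. Of the 48 genes, 15 had spans over 200 kb. Without these 6 genes, the mean number of peaks was 127 in aged and 68.3 in young lists.

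Endocytosis genes had 33, 28 and 38 peaks in aged and 20, 13 and 22 in young lists, 33 ± 5 against 18.3 ± 4.73 (SD, n = 3 each), without overlap. Synj1, synaptojanin-1, a lipid phosphatase that helps shed the clathrin coat, had 5, 3 and 7 peaks in aged and 0, 0 and 1 in young lists, and covered 951, 630 and 1225 bases in aged and 0, 0 and 163 in young lists. Regions on chromosome 16 from 90944355 to 90944575 and from 90964213 to 90964405 had a peak in every aged and no young list. Snap91 (AP180), a clathrin adaptor, had 4, 4 and 5 in aged and 2, 2 and 1 in young lists, and Amph, amphiphysin, had 5 in each aged list and 3, 0 and 4 in young lists. For these 3 genes the ages did not overlap, and the Amph region at the start of the gene, on chromosome 13 from 18948351 to 18948501, was found in the aged lists alone. The dynamins, which pinch off vesicles, overlapped between ages: Dnm1 had 6, 5 and 4 peaks in aged and 4, 3 and 4 in young lists, and Dnm3 had 9, 9 and 11 in aged and 8, 7 and 9 in young lists. Sh3gl2, endophilin A1, had 4, 2 and 6 in aged and 3, 1 and 3 in young lists. Sncb, beta-synuclein, had 1 peak in the first list of each age and none in the others.

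**Figure D3:**
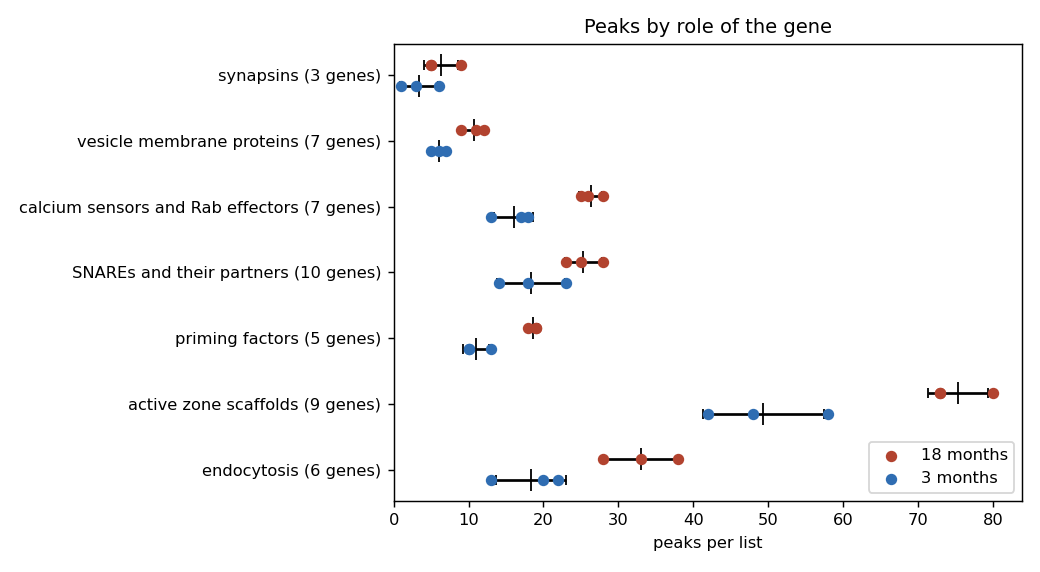
Number of m5C peaks per list (horizontal axis) in the genes of each role, with aged lists (18 months, red) above young lists (3 months, blue); each point is 1 list, the vertical tick the mean of an age and the horizontal bar its SD. Aged and young points do not overlap for vesicle membrane proteins, calcium sensors, priming factors, active zone scaffolds and endocytosis genes, and they overlap for synapsins and SNAREs. Counts are from the lists as deposited, of which the aged ones are longer. The roles were not compared at equal list length or with other groups of genes.

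Peak positions were compared by joining peaks that touched or overlapped on a strand into regions. The 46 genes had 269 of the 24501 regions, of which 73 (27.1%) had a peak in every list, against 17.6% of all regions. In 64 of these 73 the ends were identical in all peaks. Regions with a peak in every aged and no young list numbered 18 (6.69%), against 5.13% of all regions, and they lay in 14 genes. Regions with the opposite pattern numbered 0, against 0.637% of all regions. The 18 became 32 without the third aged list and 31 without the third young list, since then 2 lists decide at that age. A further 51 regions had a peak in 1 aged list alone, against 9 in 1 young list alone. In 2 aged and no young lists 28 had one, against 2 that 2 young lists alone had. These patterns were not counted over all regions. With longer aged lists such counts lean to the aged side anyway, so they say nothing particular about these genes. By the position of the midpoint, 4 of the 18 regions of the aged lists were at a gene start, 0 at a gene end and 14 inside. For the 73 regions found in every list these numbers were 6, 2 and 65. Wide regions that reach a gene end can count as inside by this rule. In the aged lists the aged-only regions had median scores of 140.5, 135.5 and 122.3. Over all peaks of these lists the medians were 143.1, 144 and 141.7. Over the peaks of the presynaptic genes they were higher, at 244.6, 229.4 and 210. Regions of these genes present in all 6 lists had medians of 1097, 796 and 1245 there.

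**Figure D4:**
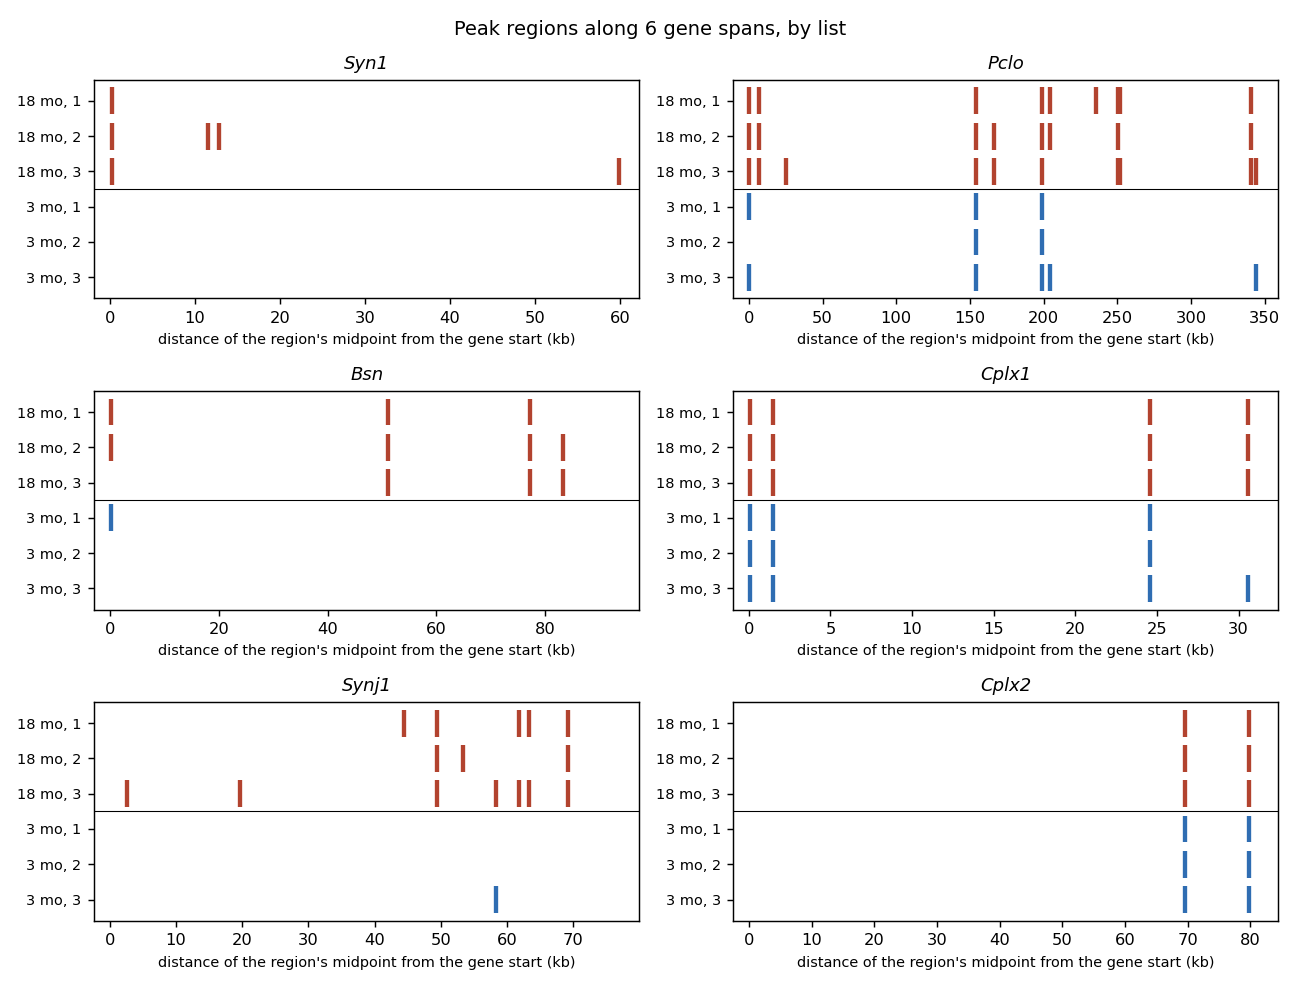
Peak regions along Syn1, Bsn, Synj1, Pclo, Cplx1 and Cplx2, by the distance in kilobases of the region's midpoint from the gene start, with the 3 aged lists drawn above the 3 young lists; a mark shows that the list had a peak in the region, and its width carries no meaning. Syn1 has marks in the aged rows only, Synj1 and Bsn have 1 mark each in the young rows, and the regions of Cplx2 are the same in all rows.

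Presynaptic peaks had their midpoint near gene starts about as often as peaks of all genes did, and near gene ends less often in these lists. This does not mean that the peaks avoid gene ends. A wide peak that reaches the gene end has its midpoint further inside and is not counted there. Examples are the regions of Syngr1 and Napb that reach the gene end, 3647 and 3522 bases wide. The same rule was used for all genes. Peaks with their midpoint in the first 1000 bases of the span were 10.4%, 11.5% and 8.21% of the presynaptic peaks in aged and 8.80%, 8.08% and 7.64% in young lists (exact permutation p = 0.2, adjusted p = 0.24), with overlap. For all genes, the share was 9.78%, 10.7% and 9.51% in aged and 8.91%, 9.70% and 9.41% in young lists. In the last 1000 bases, presynaptic peaks were 1.98%, 2.62% and 4.62% in aged and 4.80%, 3.03% and 5.56% in young lists (exact permutation p = 0.2, adjusted p = 0.24), from 4, 5 and 9 peaks in aged and 6, 3 and 8 in young lists. All genes had 8.69%, 8.78% and 9.23% there in aged and 9.42%, 9.79% and 9.87% in young lists, above the presynaptic share in each of the 6 lists. No test of that gap between genes was made.

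The lists limited to 8549 peaks left 4 of the 16 genes higher in every aged list, Syn1, Bsn, Pclo and Synj1, and none higher in every young list. Over the 7298 genes with a peak in those lists, 3.37% were higher in every aged list and 3.43% in every young list. Syn1 then had 1, 2 and 2 peaks in aged and 0 in each young list, Bsn had 2, 4 and 3 in aged and 0 in each young list, Pclo had 5, 7 and 7 in aged and 3, 2 and 2 in young lists, and Synj1 had 4, 3 and 4 in aged and 0, 0 and 1 in young lists. In these 4 genes the difference between ages was present at equal list length, and the other 12 had ages that overlapped there. Not all of the 12 still leaned to the aged lists. Snap91 had 2, 2 and 1 peaks at both ages, and Cadps had 4, 5 and 3 in aged and 5, 4 and 5 in young lists. Syt1 still leaned that way, with 6, 6 and 7 in aged and 4, 4 and 6 in young lists. With scores of at least 100, 14 genes were higher in every aged list, of which 9 were among the 16. The share over all genes was not computed at this score. Syt2, Syt7, Snap91, Stx1a, Erc2, Amph and Cadps then overlapped between ages, and Syngr3, Cplx1, Dnm3, Rph3a and Nsf no longer did. Syn1 was the one aged-only gene as deposited, and the count was 2 at equal length, 4 with scores of at least 100 and 4 without the third young list. For these last 3 counts no share over all genes was computed.

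Other genes of the presynaptic pathway, 71 that are not among the 48, also had more peaks in every aged list. They had 159, 154 and 148 peaks in aged and 91, 77 and 108 in young lists. The aged lists were longer, and these totals were not set against list length. Nor were the 71 genes compared with genes of many peaks only. Of the 71, 62 had a peak, 33 had one in every list, 16 (25.8% of the 62) were higher in every aged list and 0 in every young list, against 11.8% and 0.955% of all genes with a peak. A peak in every aged and no young list was found in 4 (6.45% of the 62), against 4.24% of all genes with a peak. They were Snap29, a SNARE of several membranes, with 1 peak in each aged list, Syt3, a synaptotagmin, also with 1 in each, Sh3glb1, endophilin B1, with 2, 3 and 2, and Picalm, a clathrin adaptor related to AP180, with 2, 1 and 1. None of the 71 had the opposite pattern.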

How the data were processed

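The 6 peak lists came from m5C antibody IP libraries of 3 aged and 3 young hippocampus samples, each list made from 1 IP library and its input. Tools named in the submitters' processing notes are HISAT2 2.0.4 and cutadapt 1.9.3, with build mm10. Peak names in the deposited lists carry the word MACS, a peak caller, whose settings the sources used here do not state. The deposited score of each peak is the authors' own value. It is at least 50 and is saturated near 3100, and was used within a list only.

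A peak was given to a gene when it overlapped the gene's GRCm38.p6 span by at least 1 base on the same strand. Strand came from a RefSeq promoter table for 40 of the 48 genes and from the peaks of 7; Vamp2 had none and was searched on both strands. Lists were compared by two-sided exact permutation tests with Benjamini-Hochberg adjustment over 6 comparisons (python 3.11.15, numpy 2.4.6, pandas 2.3.3, scipy 1.17.1). The code was tested on simulated data. Genes given with values per list were those with peaks at 1 age, with numbers that do not overlap between ages, with the most peaks or with no peak, and in addition the remaining members. The members and lists were chosen with earlier results of these data known. No genome was used, so no sequence inside peaks is given. Read depth is unknown, so no interval that needs it is given.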

Additional observations from a re-analysis of the deposited data

How the results depend on the processing

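With lists of equal length, 2 genes had peaks in every aged and no young list, and 4 were higher in every aged list. The aged-only regions there numbered 5. With scores of at least 100, 4 genes had peaks in every aged and no young list. Among counts at changed settings, only the genes higher in every list of an age at equal length were also counted over all genes. With windows of 500 bases the share at gene ends was 0 at both ages, so the difference was 0. Only midpoints are counted, so wide peaks that reach a gene end are missed by so short a window. Leaving out 1 list gave 1 to 4 aged-only genes, 20 to 32 aged-only and 0 to 1 young-only regions. The other alternatives, 123 of 136, kept the direction of the total or count that they repeat, and none was reversed. Many of them could not have reversed. Leaving out a list cannot lower the number of genes higher in every list of an age or marked at 1 age. Pairing the lists leaves the differences as they are. The number 123 is thus no measure of stability, and it does not speak of single genes. A count near the first can hide other genes: with scores of at least 100, 14 genes were higher in every aged list against 16, but 7 of the 16 lost this and 5 others gained it. Among the settings with no change of this kind were the midpoint rule, overlap on either strand, regions joined at 50% overlap and peaks in a single span. The single-span setting, the lists without the 6 genes with most peaks and the backgrounds of genes with many peaks were chosen after seeing the data. With the lists paired by number (replicate block), the differences were the same, 6.67 genes and 73.3 peaks, with an exact sign-flip p of 0.25, the smallest that 3 pairs allow. The labels do not say that a number marks a shared litter, batch or day, and over 9530 genes the deviations of same-numbered lists from their age's mean had correlations of 0.023, 0.108 and 0.039; 5 of the 6 lists, the 3 aged ones among them, correlated best with the list of their own number. The cause of the changes in count was not tested. Since 3 lists per age cannot reach 0.05, staying above it says nothing about stability, and the unknown depth limits every count.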

Other observations

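Peaks on the strand opposite to the genes were few. In the Syn1 span there was 1 such peak, in the third aged list, and in Syn3 1 in the third list of each age; in both cases a Timp gene (Timp1 and Timp3) lies in the span. In Syn2, where Timp4 lies, there were 2, 1 and 1 in aged and 1, 1 and 0 in young lists. In Dnm3 there were 2, 2 and 1 in aged and 0, 1 and 0 in young lists, with no listed protein-coding gene on that strand. These peaks were not counted for the synapsins or for Dnm3.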
